A study of Mus musculus with 4 samples.

Results

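The CHD genes encode ATP-dependent chromatin remodellers with paired chromodomains, and 8 of them were followed here in CD4+CD8+ double-positive thymocytes: Chd1, Chd2, Chd3, Chd4, Chd6, Chd7, Chd8 and Chd9. Every probe set whose only gene symbol in the array's annotation was one of these 8 was taken. This gave 15 of the 28898 probe sets with a single symbol, and they covered 7 of the 17097 genes named in this way. Chd2 had no probe set of its own: 3 probe sets are listed for Chd2 together with another gene, and they were not used. The family was chosen because Chd7 was already known to be among the largest increases in these data. The values that compare the labels are therefore given for its members as a description, with no test.

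The study profiled double-positive thymocytes, a stage of T cell development at which Cd4 and Cd8 are both present, sorted from thymuses of C57BL/6 mice. Of 4 arrays, 2 were labelled hCD2-iCre x Gfi1fl/fl and 2 WT. In the first label, an improved Cre recombinase driven by regulatory sequences of human CD2, which are active in T and B lymphocytes, was combined with floxed alleles of Gfi1, which encodes a DNA-binding repressor used throughout blood development. The labels do not say that the WT mice carried the recombinase or that replicates came from separate animals, so the effect of Cre alone cannot be told apart, and p-values reflect no more than the spread among these 4 arrays. Values are log2 RMA signals per probe set, with array medians between 3.53 and 3.55.

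CHD proteins use the energy of ATP to slide, evict or space nucleosomes, and their chromodomains bind histone tails or DNA. The family is divided into a first group (Chd1, Chd2) linked to transcribed genes, another (Chd3, Chd4, Chd5) that supplies the motor of the NuRD corepressor complex, and the last (Chd6 to Chd9) found at promoters and enhancers. CHD7 is known for CHARGE syndrome in humans, which can include a small or absent thymus. In mice, Chd4 is needed in thymocytes for full expression of Cd4.

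The signal of the targeted gene, read by its brightest probe set, did not fall. Gfi1 read 11.47 and 11.32 on the hCD2-iCre x Gfi1fl/fl arrays, against 10.17 and 10.08 on the WT arrays, a difference of 1.27 ± 0.14 (SE; limma, adjusted p = 0.00781). Where this probe set lies with respect to the loxP sites is not given in the sources used here, and a probe set outside the deleted part checks nothing. Directions below are between arrays as labelled. All 8 double-positive markers examined, among them Cd4, Cd8a and Rag1, lay above the upper quartile of every array. One of the 8 was called: Dntt, which encodes terminal deoxynucleotidyl transferase, read 11.65 and 11.60 on the hCD2-iCre x Gfi1fl/fl arrays, against 12.23 and 12.39 on the WT arrays. Its difference was -0.69 ± 0.11 (SE; limma, adjusted p = 0.0413, in a range of 0.0118 to 0.579 over the alternatives), and the call was lost without WT replicate 1 or 2 (adjusted p = 0.123 and 0.266) and under other settings. Below the median of all 4 arrays lay 3 of 4 measured B cell markers (among them Cd79a and Ms4a1), 3 of 6 myeloid and dendritic markers (Tyrobp among them), 3 of 3 markers of gamma-delta T and NK cells, 5 of 6 epithelial and stromal markers (Foxn1 among them) and 1 of 3 erythroid markers. Of the other markers on these lists, Itgam, Csf1r and Klf1 lay below the median on some arrays and above it on others. Lyz2, Cd79b, Hba-a1 and Epcam lay above the median of every array. Cd79b, a B cell receptor chain, read 7.41 and 6.28 on the hCD2-iCre x Gfi1fl/fl arrays, against 8.26 and 7.88 on the WT arrays, without overlap (limma, adjusted p = 0.347). Hba-a1, an alpha globin gene, read 8.72 and 10.45 on the hCD2-iCre x Gfi1fl/fl arrays, against 7.35 and 10.17 on the WT arrays, above the upper quartile of each. Epcam, an epithelial adhesion gene, read 8.63 and 7.69 on the hCD2-iCre x Gfi1fl/fl arrays, against 6.89 and 6.06 on the WT arrays (limma, adjusted p = 0.163). Which cells gave these signals was not tested, nor was the part of such cells in the values of the CHD genes. The average of the 13 measured cell cycle genes was higher on replicate 2 within both labels. It was 7.94 and 9.95 on hCD2-iCre x Gfi1fl/fl replicates 1 and 2, against 8.75 and 9.43 on WT replicates 1 and 2.

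Chd7 carried a high signal on both hCD2-iCre x Gfi1fl/fl arrays and a signal below 4 on both WT arrays, in each of its 2 probe sets. Probe set 1437745_PM_at read 9.70 and 9.28 on the hCD2-iCre x Gfi1fl/fl arrays, against 2.95 and 3.90 on the WT arrays. Probe set 1448026_PM_at read 9.45 and 9.53 on the hCD2-iCre x Gfi1fl/fl arrays, against 3.17 and 3.01 on the WT arrays. The groups lay far apart: the lowest hCD2-iCre x Gfi1fl/fl value exceeded the highest WT value by 5.38 in the first probe set and by 6.28 in the second. In RNA of many cells, a larger share of cells with Chd7 RNA and more Chd7 RNA per cell cannot be told apart.

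The means of 1437745_PM_at were 9.49 ± 0.30 on hCD2-iCre x Gfi1fl/fl arrays and 3.42 ± 0.67 on WT arrays (SD, n = 2 each), a difference of 6.07 or 67.2-fold. For 1448026_PM_at they were 9.49 ± 0.06 and 3.09 ± 0.11 (SD, n = 2 each), a difference of 6.40 or 84.5-fold. By size of increase these probe sets ranked 8th and 6th of 28898, and only 8 probe sets of 6 genes differed by 6 or more. The spread between replicates was unlike in the pair: the WT arrays were 0.95 apart in 1437745_PM_at and 0.16 apart in 1448026_PM_at. On the WT arrays 1448026_PM_at was below the array median on both, and 1437745_PM_at on replicate 1 only. Because no detection calls were used, each fold is a ratio of RMA signals against a low WT level, and not a ratio of transcript amounts.

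**Figure D1:**
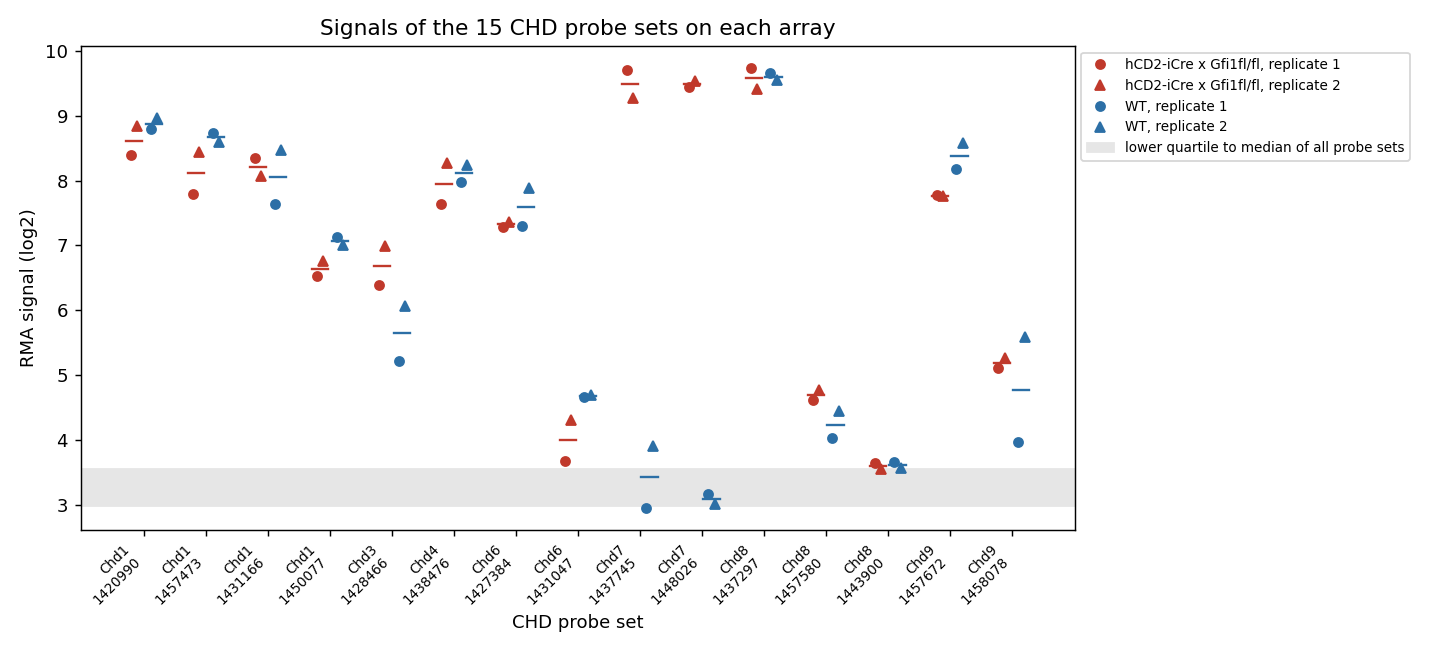
Each point is the log2 RMA signal of 1 array for 1 of the 15 CHD probe sets, with hCD2-iCre x Gfi1fl/fl in red to the left of WT in blue; short lines are means of 2 arrays and the grey band runs from the lower quartile to the median of all probe sets. Both Chd7 probe sets are above 9 on the hCD2-iCre x Gfi1fl/fl arrays and below 4 on the WT arrays, while no other CHD probe set shows a separation of that size.

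Among the remaining 13 probe sets, differences ran between -0.69 and 1.05, with 4 above 0 and 9 below, and a median of -0.16. Over all 28898 named probe sets the median was -0.02. The groups did not overlap for 8 of the 15 member probe sets, where 34.9% of all named probe sets showed no overlap. Of these 8, 4 were higher, against 15.5% of all named probe sets, and 4 were lower, against 19.3%. A difference of at least 1 in either direction was seen for 3 of the 15, the pair of Chd7 and the single one of Chd3, where 2.01% of all named probe sets reached it (1.4% upward). Nothing is read from these shares, since the family was chosen on this contrast.

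Chd3, which encodes one of the alternative ATPases of the NuRD complex (Mi-2alpha), was the only other member to differ by 1 or more. Its probe set read 6.39 and 6.99 on the hCD2-iCre x Gfi1fl/fl arrays, against 5.22 and 6.06 on the WT arrays. The lowest hCD2-iCre x Gfi1fl/fl value was 0.33 above the highest WT value, less than the distance between the WT arrays (0.84). The means were 6.69 ± 0.42 and 5.64 ± 0.60 (SD, n = 2 each), a difference of 1.05 or 2.07-fold. The difference was 0.63 without WT replicate 1 and 1.47 without WT replicate 2.

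Chd4, the other NuRD ATPase (Mi-2beta), did not separate the labels. It read 7.63 and 8.27 on the hCD2-iCre x Gfi1fl/fl arrays, against 7.98 and 8.24 on the WT arrays, a difference of -0.16. Its 4 values stood in the same order as the cell cycle average, with hCD2-iCre x Gfi1fl/fl replicate 1 lowest and replicate 2 highest. Chd4 was the only member probe set in that order, which 4.57% of all named probe sets showed, and the part of cell cycle in its spread was not tested. Chd5, the remaining gene of the NuRD group, is best known from neurons and is not among the 8 members. Its probe set stayed near the array medians, at 3.80 and 3.68 on the hCD2-iCre x Gfi1fl/fl arrays, against 3.42 and 3.66 on the WT arrays.

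Chd1, which binds histone H3 methylated at lysine 4 and moves with elongating RNA polymerase, was read by 4 probe sets that did not move alike. Its brightest, 1420990_PM_at, read 8.40 and 8.84 on the hCD2-iCre x Gfi1fl/fl arrays, against 8.80 and 8.96 on the WT arrays, and the groups overlapped. Probe set 1457473_PM_at read 7.79 and 8.44 on the hCD2-iCre x Gfi1fl/fl arrays, against 8.74 and 8.60 on the WT arrays. Both hCD2-iCre x Gfi1fl/fl values were below both WT values there. The difference was -0.56, and it was -0.23 without hCD2-iCre x Gfi1fl/fl replicate 1 and -0.89 without replicate 2. Probe set 1450077_PM_at was also lower without overlap, at 6.53 and 6.76 on the hCD2-iCre x Gfi1fl/fl arrays, against 7.13 and 7.01 on the WT arrays (difference -0.43). Probe set 1431166_PM_at overlapped, with 8.36 and 8.08 on the hCD2-iCre x Gfi1fl/fl arrays, against 7.64 and 8.48 on the WT arrays, and its difference of 0.16 had the opposite sign. Averaged over its 4 probe sets, Chd1 differed by -0.27.

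The last group, to which Chd7 belongs, held 7 probe sets of Chd6, Chd8 and Chd9, and none of them came near the differences of Chd7. Chd8, a regulator of beta-catenin target genes whose human counterpart is mutated in autism, was read at a high signal by 1437297_PM_at. It gave 9.74 and 9.41 on the hCD2-iCre x Gfi1fl/fl arrays, against 9.66 and 9.55 on the WT arrays, a difference of -0.03. The dim probe set 1443900_PM_at overlapped as well, with 3.64 and 3.55 on the hCD2-iCre x Gfi1fl/fl arrays, against 3.66 and 3.56 on the WT arrays. The remaining Chd8 probe set, 1457580_PM_at, was higher without overlap, at 4.62 and 4.77 on the hCD2-iCre x Gfi1fl/fl arrays, against 4.02 and 4.44 on the WT arrays (difference 0.46, and 0.25 without WT replicate 1). Chd8 thus had 1 probe set with separate groups and 2 with differences of at most 0.03 in size, and averaged over all 3 it differed by 0.14.

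Chd9, also known as a chromatin-related mesenchymal modulator, had 2 probe sets with opposite signs. The brighter, 1457672_PM_at, read 7.77 and 7.76 on the hCD2-iCre x Gfi1fl/fl arrays, against 8.18 and 8.58 on the WT arrays. Both hCD2-iCre x Gfi1fl/fl values were lower, by 0.40 at the narrowest, and the difference was -0.61. The other, 1458078_PM_at, read 5.11 and 5.26 on the hCD2-iCre x Gfi1fl/fl arrays, against 3.96 and 5.59 on the WT arrays. The 2 WT arrays were 1.63 apart, the widest replicate gap among the members, and the difference of 0.41 became -0.40 without WT replicate 1 and 1.23 without WT replicate 2.

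Chd6, an ATPase of the same group, was lower in both probe sets on average. The brighter, 1427384_PM_at, read 7.28 and 7.37 on the hCD2-iCre x Gfi1fl/fl arrays, against 7.30 and 7.88 on the WT arrays, and the groups overlapped (difference -0.27). The dimmer, 1431047_PM_at, read 3.67 and 4.31 on the hCD2-iCre x Gfi1fl/fl arrays, against 4.66 and 4.70 on the WT arrays, without overlap. Its difference was -0.69, the lowest of any member probe set with all arrays, and it was -0.37 without hCD2-iCre x Gfi1fl/fl replicate 1 and -1.01 without replicate 2. Without hCD2-iCre x Gfi1fl/fl replicate 1, 1457672_PM_at of Chd9 was lower, at -0.61. That Chd9 probe set was also lower without WT replicate 1, at -0.81 against -0.71 for 1431047_PM_at.

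**Figure D2:**
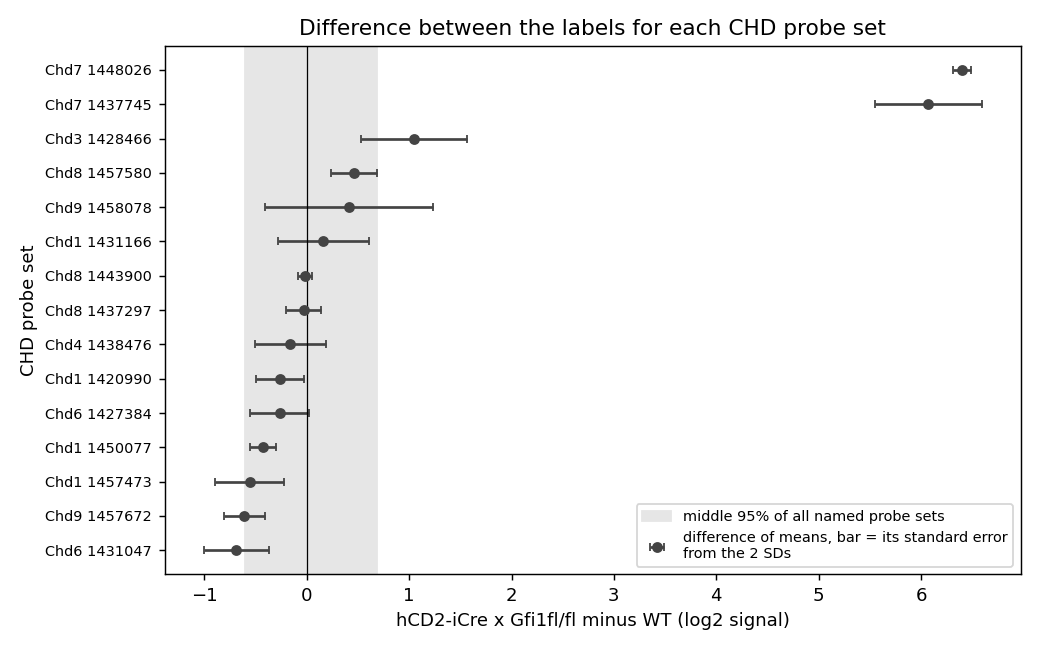
Points are differences of mean log2 signal, hCD2-iCre x Gfi1fl/fl minus WT, for the 15 CHD probe sets; bars are the standard error of the difference computed from the 2 SDs (n = 2 arrays each), and the grey band holds the middle 95% of all named probe sets. The 2 Chd7 probe sets stand at 6.07 and 6.40, Chd3 at 1.05, and the others between -0.69 and 0.46.

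The replicates of the members other than Chd7 lay between 0.0079 and 0.65 apart on the hCD2-iCre x Gfi1fl/fl arrays (median 0.28), and between 0.04 and 1.63 apart on the WT arrays (median 0.26). Several of the differences given above are of this size. Chd1, Chd8 and Chd9 each had a probe set above and a probe set below 0, so a statement about these genes depends on which probe set is read. Which transcript forms each probe set detects was not examined.

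The proteins that work with CHD remodellers, and the other remodeller families, were examined by limma across all 17097 named genes, each by its brightest probe set. Over all genes 190 were called at an adjusted p of 0.05 (1.11%), 161 higher (0.942%) and 29 lower (0.17%). Of 103 genes on 6 lists, 89 were measured by a probe set with a single symbol, and none of these was called in either direction. No such probe set was annotated for Smarca4, Arid1b, Ss18, Baz1a, Srcap, Actr6, Atrx, Ercc6, Ttf2, Kmt2a, Setd1a, Ncoa6, Ssrp1 or Supt16. They were therefore not tested, and whether other probe sets on the array read them was not examined. At an unadjusted p under 0.05 there were 2 of these 89, both subunits of the SWI/SNF remodellers, against 1417 of all genes (8.29%). An ordinary t statistic with the same adjustment called 0 of all 17097 genes, so its 0 here says nothing about these lists. The median difference of the 89 genes was -0.02, as for all genes, with 38 above 0 and 51 below.

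Of 15 partners of Chd3 and Chd4 in the NuRD and ChAHP complexes, none passed the test, and their median difference was 0.02. Mta3, a NuRD scaffold subunit, read 8.14 and 8.09 on the hCD2-iCre x Gfi1fl/fl arrays, against 8.50 and 8.55 on the WT arrays, without overlap (difference -0.41 ± 0.19 SE; limma, adjusted p = 0.670). Gatad2a, which joins the deacetylase and remodeller modules of NuRD, differed by 0.15 ± 0.20 (SE; limma, adjusted p = 0.995). The deacetylase Hdac1 read 9.75 and 10.02 on the hCD2-iCre x Gfi1fl/fl arrays, against 10.02 and 9.90 on the WT arrays. Its groups overlapped, as those of Chd4 did.

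Of 21 SWI/SNF subunits none passed, with a median of -0.06, yet 2 of them had the largest differences on any list. Smarca2, which encodes the ATPase BRM, read 8.34 and 8.34 on the hCD2-iCre x Gfi1fl/fl arrays, against 6.77 and 7.60 on the WT arrays. The groups did not overlap, and the difference was 1.16 ± 0.30 (SE; limma, adjusted p = 0.213). It was 0.74 without WT replicate 1 and 1.57 without WT replicate 2. Dpf1, a subunit known from neuronal forms of the complex, read 4.98 and 4.40 on the hCD2-iCre x Gfi1fl/fl arrays, against 3.46 and 3.74 on the WT arrays. Its difference was 1.09 ± 0.25 (SE; limma, adjusted p = 0.140, in a range of 0.00326 to 0.757 over the alternatives), and the lowest value came without hCD2-iCre x Gfi1fl/fl replicate 2. With all arrays, Smarca2, Dpf1 and Smarce1 were higher without overlap, and Smarcb1, Smarcd2, Dpf2, Phf10, Brd7, Bcl7a and Bcl7c were lower without overlap. Of all named probe sets, 15.5% were higher and 19.3% lower without overlap, and nothing is read from these groups.

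None of 17 ISWI and INO80 class genes passed (median 0.03). Ruvbl1 and Ruvbl2, the paired AAA+ ATPases of INO80 class complexes, differed by -0.24 ± 0.21 and -0.22 ± 0.21 (SE; limma, adjusted p = 0.940 and 0.946). None of 11 other SNF2 ATPases passed (median -0.03). The largest differences were -0.36 ± 0.43 for Zranb3, a translocase of stalled replication forks, and -0.28 ± 0.21 for Shprh, a ubiquitin ligase with a SNF2 domain (SE; limma, adjusted p = 0.979 and 0.894). Chd1l, an ATPase that shares a name but not the paired chromodomains with the family, differed by 0.03 ± 0.29 (SE; limma, adjusted p = 1.00). Rad54b, a recombination ATPase, was called only without hCD2-iCre x Gfi1fl/fl replicate 1 (difference 1.35; limma, adjusted p = 0.027, in a range of 0.027 to 1.0 over the alternatives), against a difference of 0.16 with all arrays. It read 3.46 and 5.83 on hCD2-iCre x Gfi1fl/fl replicates 1 and 2, against 4.30 and 4.66 on WT replicates 1 and 2, the order of the cell cycle average, whose part in this was not tested.

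None of 18 genes linked to methylation of histone H3 at lysine 4, for enzymes and for subunits of their complexes, passed (median -0.02). Kdm5b, a demethylase of this mark, and Kmt2c, an enhancer methyltransferase, each differed by -0.28, with SE of 0.17 and 0.16 (limma, adjusted p = 0.837 and 0.811). None of 7 elongation partners of Chd1 passed either (median -0.03). Of these, Ctr9 and Rtf1, which belong to the PAF1 complex, differed by -0.24 ± 0.20 and -0.13 ± 0.21 (SE; limma, adjusted p = 0.940 and 1.00). With 2 arrays per label, simulated increases of 1 on the log2 scale were recovered in 42.4% of genes, so a change of that size could go uncalled.

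**Figure D3:**
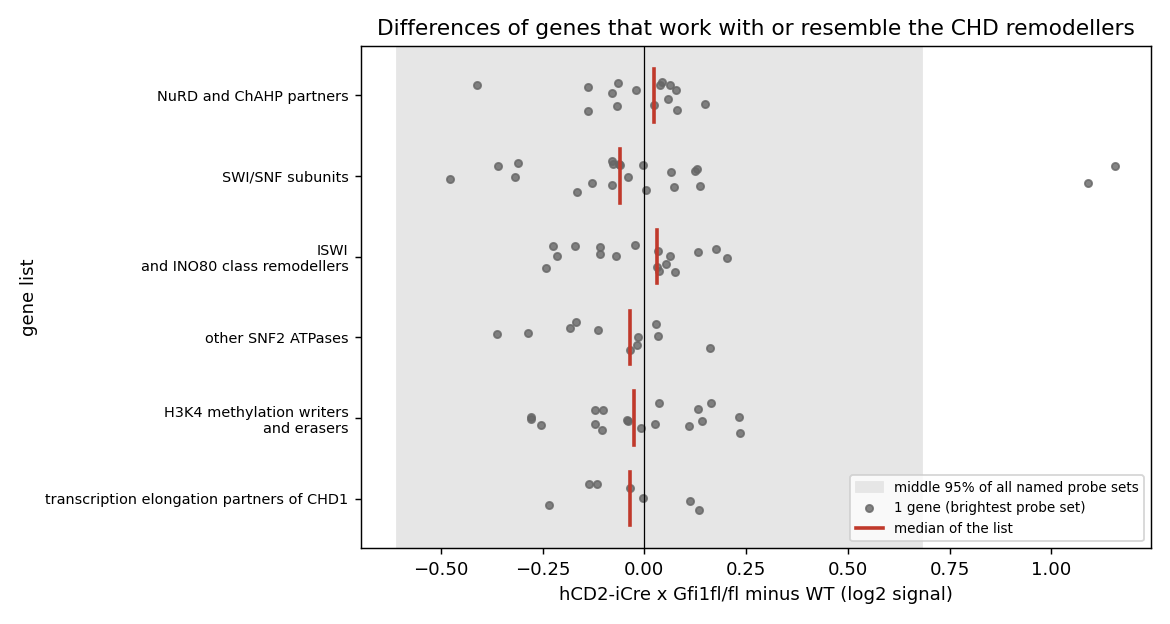
Each grey point is the difference in log2 signal, hCD2-iCre x Gfi1fl/fl minus WT, of 1 gene by its brightest probe set; red lines are list medians and the grey band is the middle 95% of all named probe sets. Medians lie between -0.06 and 0.03, and only Smarca2 and Dpf1 among the SWI/SNF subunits lie beyond 1.

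Whether the genes beside Chd7 on chromosome 4 differed as well was examined with the 3 nearest measured protein-coding genes on each side. None of the 6 was called by limma, and 0 of them had an unadjusted p under 0.05. Car8, Nsmaf, Clvs1 and Plekhf2 were lower without overlap, and Rab2a and Asph overlapped. Over all named probe sets, not only the brightest of each gene, 19.3% were lower without overlap, and nothing is read from this count. Rab2a, a small GTPase of early secretion and the nearest gene before Chd7, read 10.97 and 10.87 on the hCD2-iCre x Gfi1fl/fl arrays, against 10.95 and 10.59 on the WT arrays. Its difference was 0.15 ± 0.16 (SE; limma, adjusted p = 0.965). Clvs1, which encodes clavesin 1 and is the nearest gene after it, read 3.20 and 3.16 on the hCD2-iCre x Gfi1fl/fl arrays, against 3.21 and 3.32 on the WT arrays, close to the lower quartiles of the arrays. Car8, a carbonic anhydrase relative, and Asph, an aspartate hydroxylase gene, were as dim, with differences of -0.11 and 0.05. Nsmaf and Plekhf2, the outermost on either side, differed by -0.44 ± 0.22 and -0.37 ± 0.24 (SE; limma, adjusted p = 0.711 and 0.847). None of these neighbours came near the difference of Chd7. Car8, Clvs1 and Asph lay below the median on every array, where a fall cannot be read reliably.

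**Figure D4:**
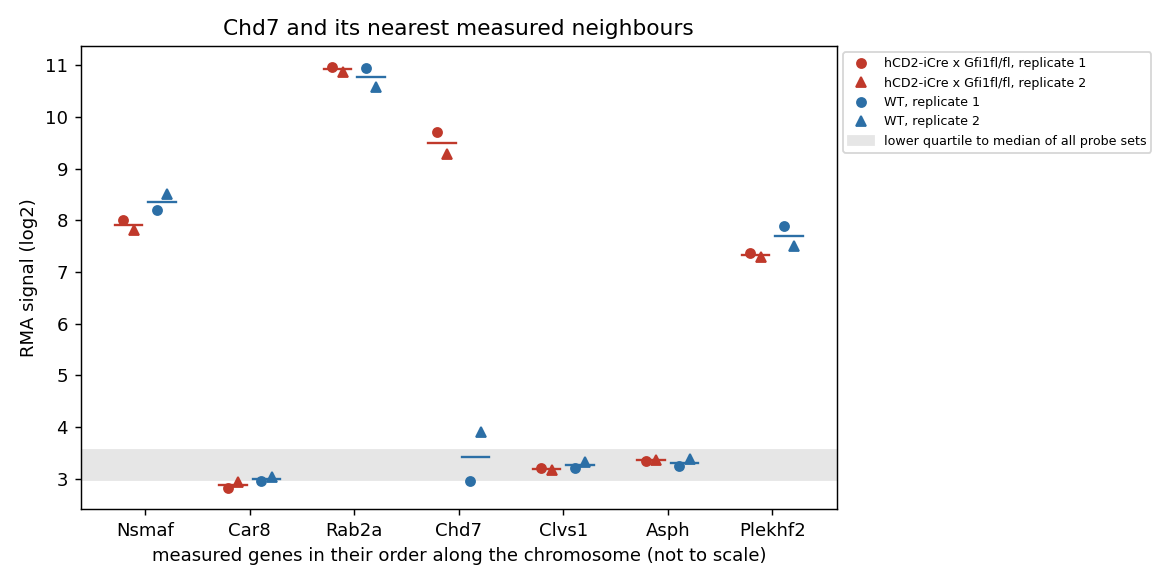
Points are log2 RMA signals on single arrays for Chd7 (brightest probe set) and its 3 nearest measured protein-coding genes on each side, in chromosome order and not to scale; short lines are means of 2 arrays and the grey band is the lower quartile to median of all probe sets. The arrays of the 2 labels separate by more than 5 for Chd7, while the means of each neighbour differ by at most 0.44 in size.

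The genes whose pattern over the 4 arrays was nearest to Chd7 were sought among 82 genes with a range of at least 3, by Euclidean distance after each gene's mean was subtracted. The nearest was Atp8b4, a P4-type ATPase gene, at a distance of 0.78. It read 8.99 and 9.11 on the hCD2-iCre x Gfi1fl/fl arrays, against 3.31 and 3.92 on the WT arrays. Like 1437745_PM_at of Chd7, and unlike 1448026_PM_at, it was higher on WT replicate 2 than on WT replicate 1. Between hCD2-iCre x Gfi1fl/fl replicates 1 and 2, Atp8b4 rose, while 1437745_PM_at fell. Next in distance came Pdlim4, a PDZ and LIM domain gene (1.12), Sertad4 (1.15), Klf2, a Kruppel-like factor of resting T cells (1.29), and Cers4, a ceramide synthase gene (1.31). The differences of these 5 genes lay between 4.88 and 6.62. Over 4 arrays such likeness mostly restates that a gene was high under 1 label and low under the other, and no test was made of it.

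**Figure D5:**
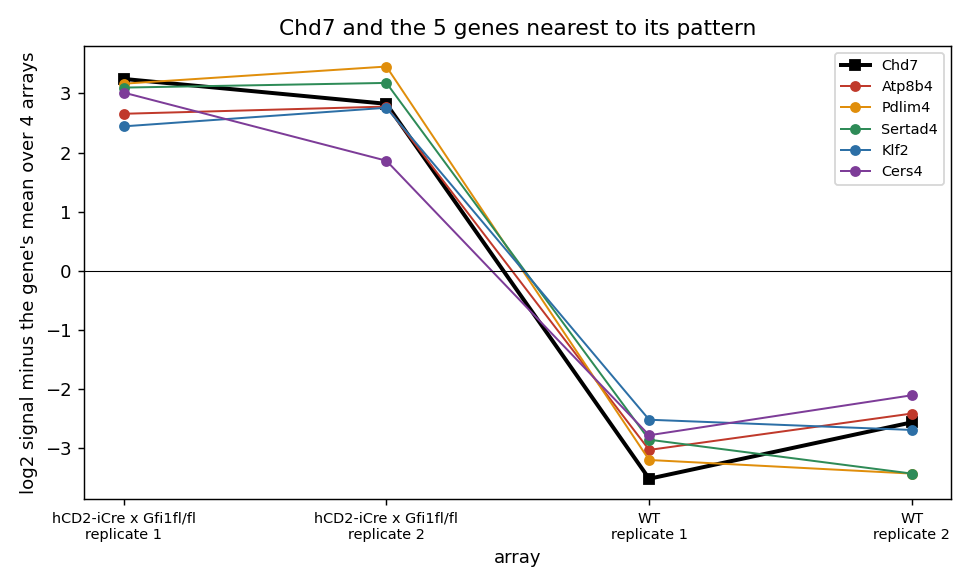
Lines give log2 signal minus the gene's own mean over the 4 arrays for Chd7 (black, brightest probe set) and the 5 genes at the smallest Euclidean distance from it. All 6 genes are above their mean on both hCD2-iCre x Gfi1fl/fl arrays and below it on both WT arrays, and they differ in which replicate is higher.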

How the data were processed

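Total RNA of sorted double-positive thymocytes was made into biotinylated cRNA with an Affymetrix IVT kit, 1 array per sample, per the labels' protocols. The submitters' processing notes name RMA and, as software, Affymetrix Expression Console 1.1. The values as deposited fit log2 RMA output: they ran between 2.19 and 13.5 with nearly equal quartiles, and were used without further normalization. Of 45037 probe sets, 28898 had 1 gene symbol in the platform's annotation, 551 had several and 15588 were not listed. No genome build is named, so no coordinates are given, and RefSeq's gene table (GRCm38.p6) served only for names and neighbours.

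Members were described per probe set. Other genes (brightest probe set each) were compared in R 4.3.3 with limma 3.58.1 (linear model, moderated variances with a trend on intensity, no covariate) and Benjamini-Hochberg adjustment at 0.05 over 17097 genes, two-sided. There were 2 residual degrees of freedom, to which the prior added 5. The number of arrays limits the precision. On simulated data (20 runs, 200 changed genes of 17097), 42.4% of increases by 1, 53.1% of decreases by 1 and 93.8% of increases by 2 were recovered, and 5.03% of calls were false. The simulated noise was independent between genes and arrays. Differences shared by many genes on an array, as in the cell cycle genes, were not simulated, so these shares need not hold for the real arrays. Named were all members, the 2 genes of largest difference on each list without a call, the neighbours, and the 5 genes nearest to Chd7 in pattern. Hdac1, Chd1l, Rad54b and Chd5 were named after their values were seen. So were Dntt, Cd79b, Hba-a1 and Epcam from the marker lists, and the SWI/SNF subunits listed as without overlap, apart from Smarca2 and Dpf1. Members and lists were chosen with earlier results of these data known. Alternatives were centring each array on its median, renewed quantile normalization, a replicate block, a filter on the dimmest 30% of genes, a prior without trend, the mean of a gene's probe sets, an ordinary t statistic and leaving out each array. Figures used matplotlib 3.10.9.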

Additional observations from a re-analysis of the deposited data

How the results depend on the processing

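The count of 3 member probe sets differing by at least 1 stayed at 3 under median centring and a second quantile normalization, which moved no member's difference by more than 0.05 in size, and ran between 2 and 4 when 1 array was left out. The Chd7 differences then ran between 5.59 and 6.55 (1437745_PM_at) and between 6.32 and 6.48 (1448026_PM_at). Signs changed on leaving out 1 array for 1431166_PM_at of Chd1, Chd4, 1427384_PM_at of Chd6, 1437297_PM_at and 1443900_PM_at of Chd8, and 1458078_PM_at of Chd9. The 89 partner and remodeller genes gave between 0 and 1 calls when 1 array was left out, as did the SWI/SNF subunits (Dpf1, without hCD2-iCre x Gfi1fl/fl replicate 2) and the other SNF2 ATPases (Rad54b, without replicate 1), and 0 under the other alternatives. The neighbours of Chd7 gave 0 under every alternative run, with Car8 left out by the filter on dim genes. Over all genes the count of 190 became 183 with the replicate block, 0 with the ordinary t statistic, and between 103 and 475 when 1 array was left out. The replicate numbers are not said to mark a shared animal or day; deviations of same-numbered arrays correlated at 0.30 across genes, and the block changed no call among the listed genes. Among named genes that were never called, Gatad2a differed by -0.15 and Car8 by 0.080 with the mean of all probe sets, and leaving out 1 array gave Rtf1 -0.29 to 0.018, Zranb3 -1.01 to 0.29, Rab2a -0.027 to 0.33 and Asph -0.018 to 0.11. The cause of these changes was not tested. Signals near the array medians limit what a fall could show.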
